A study of Mus musculus with 12 samples.

Results

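Adult mouse prefrontal cortex injected with a viral vector that makes a short hairpin RNA against transthyretin (Ttr) was compared with cortex that had received a control virus. The comparison takes the 4 libraries labelled as Ttr knockdown and the 4 labelled as control, 8 of the 12 libraries of the study, and covers the 18289 of 55401 gene identifiers that passed an expression filter. All samples were from male C57BL/6J mice aged 14 weeks, fed a standard chow with vitamin B12 and sampled 4 weeks after bilateral stereotaxic injection into the dorsomedial prefrontal cortex, at 0.1 µL/min for 5 min. The control virus was pAAV.1-CAG-GFP, which expresses green fluorescent protein (GFP) from the broadly active CAG promoter. The knockdown virus was pAAV-U6-Ttr-shRNA-2, continued in the same vector by CAG-GFP and the WPRE3 element, which makes the hairpin from the U6 promoter and GFP from CAG, so both groups carry an adeno-associated virus (AAV) and GFP. A further group, used here only for the difference between the Ttr viruses, received pAAV-CAG-GFP-P2A-Ttr-WPRE.bgH, which overexpresses Ttr. Per the labels' protocols the control vector came from Addgene and both Ttr vectors were custom-made by a viral vector core, so hairpin, vector elements and vector source cannot be told apart in this comparison. The labels give 4 numbered samples per group and do not tie each to its own mouse, so the spread behind each p-value is that between samples and may be technical in part.

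Transthyretin is a carrier of thyroid hormone and of vitamin A, and in brain its messenger RNA is made chiefly by the epithelium of the choroid plexus. Immediate early genes such as Fos, Egr1, Nr4a1 and Arc are switched on within minutes when neurons fire, through calcium and MAP kinase signals that act on factors such as CREB and SRF, and many of their products (dual-specificity phosphatases, Sprouty proteins) dampen the same signals. Interferon-stimulated genes form the antiviral programme: interferons bind their receptors, Janus kinases activate STAT proteins that join IRF9, and this complex binds interferon-stimulated response elements (ISREs) in the promoters of genes such as Isg15 and Ifit1.

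The promoters of the genes around which the values turn show both kinds of element. The sequences are the 250 bases before the annotated transcription start, taken from RefSeq on GRCm38.p6 and written 5′ to 3′ on the gene's strand. For 3 activity-regulated genes the capitals mark the CREB half-site, TGACG or its reverse complement CGTCA.
Nr4a1 (chr15:101266596-101266845, plus strand): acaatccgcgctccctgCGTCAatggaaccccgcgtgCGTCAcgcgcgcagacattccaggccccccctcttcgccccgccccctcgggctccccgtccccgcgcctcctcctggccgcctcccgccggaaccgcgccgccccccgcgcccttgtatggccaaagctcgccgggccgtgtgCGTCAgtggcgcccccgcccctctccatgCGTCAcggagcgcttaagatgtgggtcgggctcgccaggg
Fos (chr12:85473640-85473889, plus strand): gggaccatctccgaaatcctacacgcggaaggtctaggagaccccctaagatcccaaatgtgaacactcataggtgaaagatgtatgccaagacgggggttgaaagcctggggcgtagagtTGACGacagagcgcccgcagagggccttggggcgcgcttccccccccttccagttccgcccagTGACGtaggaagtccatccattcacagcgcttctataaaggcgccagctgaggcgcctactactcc
Egr4 (chr6:85513590-85513839, minus strand): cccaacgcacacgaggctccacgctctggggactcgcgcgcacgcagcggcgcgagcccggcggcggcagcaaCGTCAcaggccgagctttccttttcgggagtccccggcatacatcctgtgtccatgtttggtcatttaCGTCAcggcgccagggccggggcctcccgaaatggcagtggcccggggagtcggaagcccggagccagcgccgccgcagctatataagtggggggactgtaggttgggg
For 4 interferon-regulated genes the capitals mark the ISRE core, GAAA followed after any 2 bases by GAAA, or on the other strand TTTC followed after any 2 bases by TTTC.
Isg15 (chr4:156200819-156201068, minus strand): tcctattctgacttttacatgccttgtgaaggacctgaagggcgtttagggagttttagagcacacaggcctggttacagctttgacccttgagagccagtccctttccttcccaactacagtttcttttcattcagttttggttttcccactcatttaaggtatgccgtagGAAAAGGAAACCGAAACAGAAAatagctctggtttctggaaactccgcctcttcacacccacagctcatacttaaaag
Ifit1 (chr19:34640639-34640888, plus strand): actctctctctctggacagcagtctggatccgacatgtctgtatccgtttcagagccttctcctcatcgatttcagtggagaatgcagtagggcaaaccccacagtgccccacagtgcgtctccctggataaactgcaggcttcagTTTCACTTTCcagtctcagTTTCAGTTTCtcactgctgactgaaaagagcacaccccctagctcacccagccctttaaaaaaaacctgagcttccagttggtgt
Rsad2 (chr12:26456453-26456702, minus strand): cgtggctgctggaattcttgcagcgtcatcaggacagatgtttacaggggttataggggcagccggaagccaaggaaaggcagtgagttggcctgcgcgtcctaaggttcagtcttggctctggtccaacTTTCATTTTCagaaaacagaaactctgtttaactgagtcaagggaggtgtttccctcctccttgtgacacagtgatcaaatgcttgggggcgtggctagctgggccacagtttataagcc
Igtp (chr11:58199306-58199555, plus strand): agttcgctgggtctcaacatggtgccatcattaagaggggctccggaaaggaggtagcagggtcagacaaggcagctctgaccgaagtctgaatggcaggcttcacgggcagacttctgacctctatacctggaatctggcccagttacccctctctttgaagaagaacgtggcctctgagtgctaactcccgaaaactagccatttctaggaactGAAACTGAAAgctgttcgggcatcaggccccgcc
Nr4a1 held 4 half-sites, at 233, 213, 69 and 40 bases before the start, and Fos held 2, at 129 and 66 bases. Isg15 held 3 overlapping ISRE cores 78 to 66 bases before the start. Egr4 also held 1 ISRE core and Rsad2 1 CREB half-site, neither of them in capitals. Both strands were searched, and a full CRE, TGACGTCA, counts as a half-site on each strand.

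Over the lists, 12 of the 19 immediate early transcription factors with a RefSeq promoter (63.2%) and 14 of 23 activity-induced effectors (60.9%) held a CREB half-site, against 17.9% of all 27025 promoters of the same length. It was less frequent in MAP kinase feedback genes, in 3 of 11 (27.3%), and in interferon-stimulated genes, in 4 of 27 (14.8%). The full CRE was found in 0 of the 19 and in 7 of the 23 (30.4%), against 1.62% of all. An ISRE core was found in 12 of 27 interferon-stimulated genes (44.4%) and in 9 of 10 interferon-inducible GTPases (90.0%), against 3.04% of all promoters. It was also found in 2 of the 19 early factors (10.5%) and 4 of the 23 effectors (17.4%), and in 0 of the 11 feedback genes. The SRF site, a CArG box, was found in 0 of the 19, 0 of the 23 and 1 of the 11 (9.09%), against 1.4% of all. Class I antigen presentation genes held an ISRE core in 3 of 15 (20%) and the CREB half-site in 9 of 15 (60.0%). A match is a description of the letters in this window and not of binding.

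Total counts were 22911948 to 37166146 in the controls and 19879629 to 34606413 in knockdown. Markers of cortical glutamatergic neurons were abundant in all 8 libraries: Slc17a7, the vesicular glutamate transporter, had 1436 ± 65.6 TPM (the deposited level scaled to transcript length and library size) in control and 1330 ± 84.6 in knockdown (SD, n = 4 each), and Tbr1 had 113 ± 8.50 and 90.1 ± 10.7. Striatal markers varied widely within both groups, with Drd2 at 1.78 to 33.9 CPM (read counts scaled to library size) in control and 2.19 to 39.7 in knockdown. The choroid plexus markers Folr1, Kcne2 and Otx2 were near 0, at 0 to 0.347, 0 to 0.0970 and 0 to 0.428 CPM over the 8 libraries. All 18 genes of the choroid plexus list summed to 219 to 322 CPM in control and 187 to 256 in knockdown. Of the 10 tested, 6 had a higher mean in knockdown and 1 lay above all controls (10.0%, against 2.78% of all genes). Their median log2 difference, knockdown minus control, was 0.23. It was -0.11 without knockdown replicate 3, -0.011 without control replicate 4 and 0.33 without knockdown replicate 2. Knockdown replicate 4 stood apart, with a mitochondrial share of counts of 7.17% against 4.59% to 5.94% in the other 11 libraries.

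Ttr itself was close to the detection limit in both groups, and the groups overlapped. The gene (ENSMUSG00000061808, chr18:20665280-20674321, plus strand, GRCm38) had 14, 200, 18 and 18 counts in control replicates 1 to 4 and 3, 47, 29 and 13 counts in knockdown replicates 1 to 4. In CPM these were 0.580, 8.50, 0.491 and 0.781 in control and 0.146, 1.86, 0.827 and 0.663 in knockdown. Control replicate 2 stood far above the other controls, while knockdown replicate 1 was the lowest and knockdown replicate 2 next after control replicate 2. The difference, knockdown minus control, was -1.41 ± 1.16 (SE) on the log2 scale, with an adjusted p of 0.936 in edgeR's quasi-likelihood test with Benjamini-Hochberg adjustment over all genes. Without control replicate 2 it was 0.60, so the sign of the difference rests on that library. At these counts a lower Ttr level with the hairpin was not detectable. With the overexpression virus Ttr had 94.2 to 639 CPM, and knockdown minus overexpression was -8.42 ± 0.91 (SE; adjusted p = 0.00774, edgeR), the only gene of 18289 past the threshold between those groups (0.00547%).

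Across all genes, 1 of 18289 passed an adjusted p of 0.05 in knockdown against control (0.00547%), and it was Nr4a1, higher with the hairpin virus. At an unadjusted p of 0.05, 1039 genes passed (5.68%), 705 of them higher (3.85%) and 334 lower (1.83%). In 508 genes (2.78%) all 4 knockdown libraries lay above all 4 controls, and in 243 (1.33%) all 4 lay below. DESeq2 on the same counts called 43 genes (0.235%), 41 of them higher (0.224%), and edgeR without the expression filter called 22 of 34740 (0.0633%). Of the 43, 15 belonged to the activity-regulated lists described next (immediate early transcription factors, activity-induced effectors, MAP kinase feedback) and 12 to the interferon lists. Without knockdown replicate 4, edgeR called 10 of 18553 genes (0.0539%), all higher, of which 8 were in the activity lists and none in the interferon lists. The lists were chosen with earlier results of these data known, so these counts describe where the calls lie and test nothing.

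Nr4a1, an orphan nuclear receptor induced by neuronal activity, rose in knockdown cortex. The gene (ENSMUSG00000023034, chr15:101254269-101274795, plus strand, GRCm38) is annotated from a start upstream of the RefSeq start used for the promoter shown above. It had 49.0, 54.2, 56.1 and 45.3 CPM in control replicates 1 to 4 and 121, 113, 113 and 80.1 CPM in knockdown replicates 1 to 4. Every knockdown library lay above every control, with knockdown replicate 4 the lowest of the 4. The level was 50.0 ± 4.71 TPM in control and 105 ± 20.5 TPM in knockdown (SD, n = 4 each). The difference was 1.06 ± 0.127 (SE, log2), with an adjusted p of 0.0242 in edgeR's test. The call was lost when any one of the 4 controls or knockdown replicates 1, 2 or 3 was left out (adjusted p 0.0819 to 0.193, log2 0.99 to 1.11), and it was kept without knockdown replicate 4 (1.17, adjusted p = 0.00102). The overexpression libraries had 74.2, 63.6, 56.5 and 76.2 CPM, above every control and below every knockdown library, and knockdown minus overexpression was 0.66 (adjusted p = 0.855, edgeR), so a difference between the 2 Ttr viruses was not shown by this test.

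The other immediate early transcription factors leaned the same way. Of 25 listed, 24 were tested, 21 had a higher mean in knockdown, and 13 (54.2%, against 2.78% of all genes) had all knockdown libraries above all controls, with none below. Their median log2 difference was 0.52, against 0.0047 for all genes tested, and 1 of the 24 passed the edgeR test. DESeq2 called 8 of them and edgeR without the filter 6. Without knockdown replicate 4 the median was 0.56, 17 were above all controls (4.37% of all genes) and 5 passed.

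Egr2, a zinc finger factor of the early growth response family, had the largest difference of the list. It had 1.95, 1.57, 2.24 and 1.69 CPM in control and 10.2, 9.92, 8.59 and 5.05 CPM in knockdown (2.17 ± 0.34 SE, log2; adjusted p = 0.190, edgeR). The groups did not overlap, and replicate 4 was again the lowest of the knockdown libraries. Egr4, another member of the family, had 15.4, 17.5, 17.0 and 15.4 CPM in control and 38.6, 32.7, 32.3 and 23.3 CPM in knockdown (0.96 ± 0.18 SE; adjusted p = 0.234, edgeR). Egr1 had 151, 154, 151 and 146 CPM in control and 313, 288, 260 and 174 CPM in knockdown (0.78 ± 0.16 SE; adjusted p = 0.234, edgeR). All 3 missed the threshold with all libraries and passed it without knockdown replicate 4, at adjusted p-values of 0.0356, 0.0441 and 0.0177. Egr3 did not share the pattern, with 140.0 to 282 CPM in control and 185 to 236 CPM in knockdown (0.02; adjusted p = 0.998, edgeR).

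Among the AP-1 factors, Fos had 7.79, 6.97, 10.1 and 8.80 CPM in control and 37.8, 35.0, 24.9 and 14.3 CPM in knockdown (1.73 ± 0.37 SE, log2; adjusted p = 0.319, edgeR). Fosb had 10.7 to 13.1 CPM in control and 14.5 to 21.6 CPM in knockdown (0.58), Fosl2 had 26.9 to 35.2 and 41.9 to 48.0 (0.46), and Junb had 35.3 to 48.7 and 50.2 to 103 (0.93). All 4 kept the groups apart, and none of them passed the edgeR test. Their partners Jun and Jund lay at -0.15 and -0.11, with overlapping groups. Klf10, a Krüppel-like factor, had 34.0 to 42.6 CPM in control and 44.9 to 62.8 in knockdown (0.59), and without knockdown replicate 4 it passed at an adjusted p of 0.0411. Npas4, a factor restricted to active neurons, had 9.61, 9.30, 14.7 and 17.6 CPM in control and 38.6, 28.9, 15.4 and 10.97 CPM in knockdown (0.87; adjusted p = 0.894, edgeR), so its groups overlapped. The genes of this list beyond Nr4a1, Egr2, Egr4, Fosl2 and Klf10 were chosen for description after their values were seen. The plot of activity-regulated genes shows only genes whose groups did not overlap, and Egr3, Jun, Jund and Npas4 are not drawn. Among the genes drawn the order of the knockdown libraries recurs from gene to gene.

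**Figure D1:**
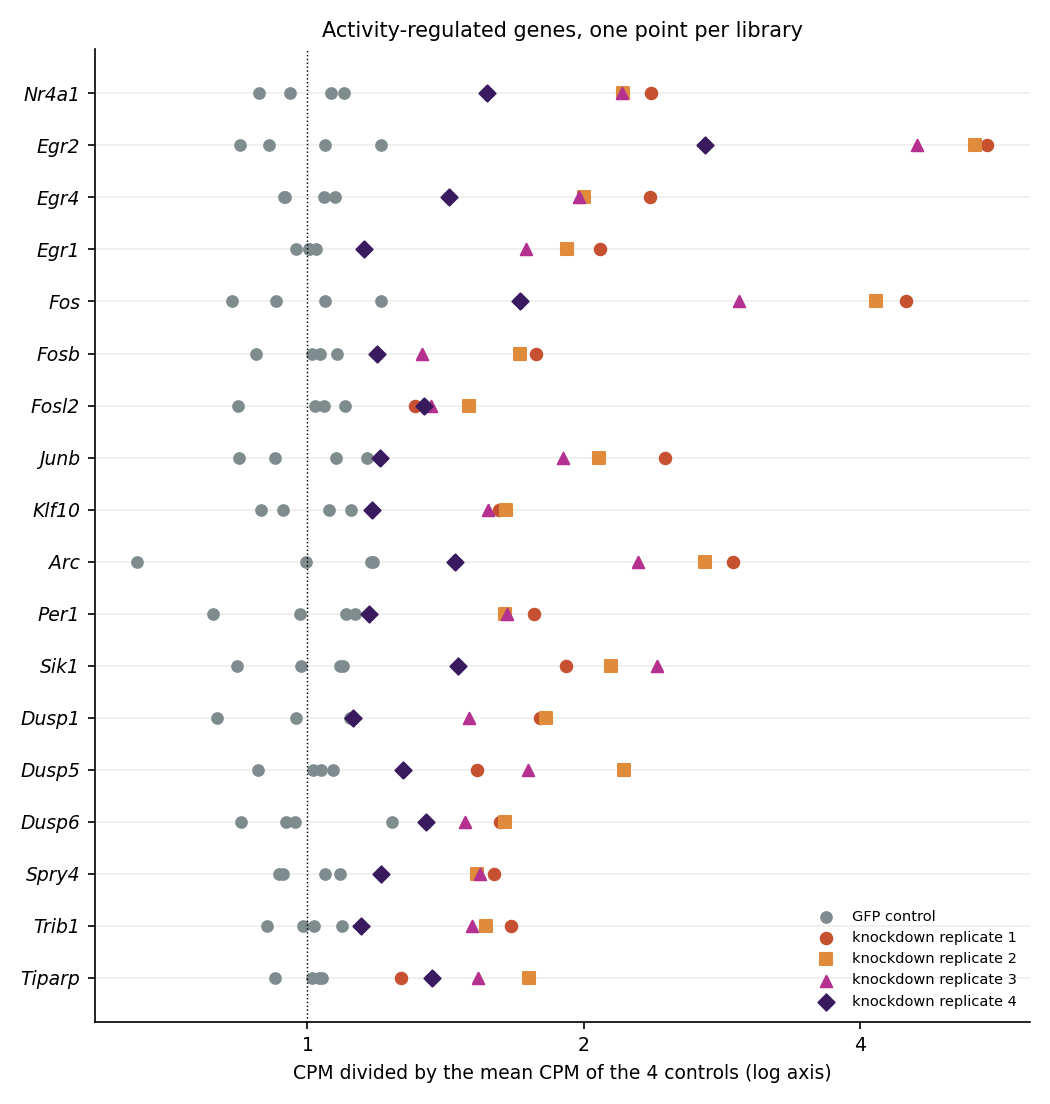
Levels of 18 activity-regulated genes in each library, as CPM divided by the mean CPM of the 4 controls, on a log axis. Only genes with every knockdown library above every control are drawn. Grey points are the controls and coloured points the knockdown replicates, and replicate 4 lies lowest of the 4 for every gene shown except Fosl2 and Tiparp.

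The list of activity-induced effectors was mixed. Of 28 activity-induced effectors, all tested, 23 had a higher mean in knockdown, 6 (21.4%, against 2.78% of all genes) lay above all controls, none passed the edgeR test, and the median difference was 0.20. Arc, which acts at excitatory synapses, had 50.2, 76.6, 90.2 and 90.6 CPM in control and 224, 208, 176 and 111 CPM in knockdown (1.23 ± 0.26 SE, log2; adjusted p = 0.3201, edgeR). The groups did not overlap. Tiparp, a mono-ADP-ribosyltransferase, had 11.1 to 12.5 CPM in control and 15.2 to 21.0 in knockdown (0.56; adjusted p = 0.234), and Trib1, a pseudokinase, had 17.4 to 20.9 and 21.9 to 32.0 (0.56; adjusted p = 0.234, and 0.00936 without knockdown replicate 4, all by edgeR). Gpr3, a receptor that raises cyclic AMP, had 4.12 to 5.52 CPM in control and 6.68 to 8.01 in knockdown (0.60). Other members, named after their values were seen, lay near 0: Homer1 at -0.03, Nptx2 at -0.04, Inhba at -0.02, Nrn1 at 0.03 and Sst at 0.004. Bdnf, the neurotrophin, had 30.1 to 44.4 CPM in control and 39.4 to 53.3 in knockdown (0.35; adjusted p = 0.843, edgeR).

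The list of MAP kinase feedback genes, which also holds the salt-inducible kinase Sik1, split by gene. Of 14, all tested, 12 had a higher mean and 5 (35.7%, against 2.78% of all genes) lay above all controls. The median was 0.08, or 0.043 without knockdown replicate 1 and 0.14 without knockdown replicate 4. The 5 were Sik1, a salt-inducible kinase (5.96 to 7.77 CPM in control, 10.4 to 17.1 in knockdown, 0.99), the phosphatases Dusp5 (6.21 to 7.51 and 8.93 to 15.6, 0.76), Dusp6 (37.6 to 55.0 and 59.8 to 72.9, 0.60) and Dusp1 (19.8 to 27.8 and 27.9 to 45.2, 0.64), and the Sprouty protein Spry4 (9.59 to 11.2 and 12.4 to 16.4, 0.55). Their adjusted p-values were 0.234 to 0.522 in edgeR's test, and without knockdown replicate 4 Dusp5 and Spry4 passed, both at 0.0441. By contrast Spry1 and Spry2 lay at 0.008 and -0.0002, and Spred1 at 0.02. The kinases and factors that carry the signal (Creb1, Srf, Elk1 and others, 19 listed and tested) had a median of -0.003, with 8 above 0 and none apart between the groups. Srf had 35.3 to 41.5 CPM in control and 37.5 to 46.05 in knockdown (0.09; adjusted p = 0.936, edgeR).

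Among the 15 genes with the smallest p-values on the higher side, 4 belonged to none of the activity or interferon lists. Nfil3 and Bhlhe40, transcriptional repressors tied to the circadian clock, had 8.54 to 8.94 CPM in control against 10.8 to 13.7 in knockdown (0.51) and 88.0 to 110 against 133 to 152 (0.50). Midn, a ubiquitin-independent degradation factor, had 39.1 to 43.8 against 49.4 to 64.1 (0.51), and Stk40, a pseudokinase, had 29.97 to 34.0 against 39.9 to 43.5 (0.38). All 4 had an adjusted p of 0.234 in edgeR's test. They kept the groups apart, which picking genes by smallest p-value favours. The clock gene Per1, which activity also induces, had 69.0, 70.7, 49.5 and 61.5 CPM in control and 111, 103, 103 and 73.2 in knockdown (0.64; adjusted p = 0.234, edgeR). Over the 19 clock genes the median was 0.05, with 12 above 0 and 3 above all controls (15.8%, against 2.78% of all genes), which were these 3.

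Interferon-stimulated genes had higher values in knockdown cortex, by amounts that differed widely between its 4 libraries. All 39 listed were tested and all 39 had a higher mean in knockdown. In 34 (87.2%, against 2.78% of all genes) every knockdown library lay above every control. The median difference was 2.42 on the log2 scale, and none passed the edgeR test, while DESeq2 called 12 and edgeR without the filter 6. Knockdown replicate 4 was by far the highest. Without it the median was 1.33 and the number above all controls was 34 (87.2%, against 4.37% of all genes in that fit). None was past the adjusted threshold, and 32 were at an unadjusted p of 0.05.

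Irf9 and Stat2 belong to the complex that carries the signal to the nucleus. Irf9 had 10.9, 7.77, 8.74 and 7.504 CPM in control and 22.6, 37.3, 19.0 and 87.7 CPM in knockdown (2.25 ± 0.46 SE, log2; adjusted p = 0.241, edgeR). Replicate 4 was highest, replicate 2 next and replicates 1 and 3 lowest, still above the controls. Irf7, which amplifies interferon production, had 1.95 to 4.35 CPM in control and 6.90 to 73.1 CPM in knockdown (3.24, or 1.99 without replicate 4). Stat2 had 19.9 to 22.6 and 28.5 to 88.6 CPM (1.12, or 0.60 without replicate 4).

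Isg15, a ubiquitin-like modifier, had 3.56, 1.44, 1.42 and 0.781 CPM in control and 9.61, 16.1, 3.71 and 113 CPM in knockdown (4.29 ± 1.06 SE, log2; adjusted p = 0.518, edgeR, and 2.44 without replicate 4). Its protease Usp18, a brake on interferon signalling, had 1.45, 0.680, 1.501 and 0.521 CPM in control and 6.26, 9.05, 3.94 and 51.8 CPM in knockdown (4.03 ± 0.87 SE; adjusted p = 0.326, edgeR, and 2.58 without replicate 4). Oas2, a sensor that activates RNase L, had 0.434 to 0.746 CPM in control and 2.02 to 17.4 CPM in knockdown (3.35; adjusted p = 0.326, edgeR). For Isg15 the lowest knockdown library lay just above the highest control, whereas for Usp18 and Oas2 the gap was wider. Ifi27 was the most even: 31.1, 33.4, 28.0 and 30.1 CPM in control and 52.6, 74.0, 52.2 and 89.1 CPM in knockdown (1.13 ± 0.21 SE; adjusted p = 0.234, edgeR, and 0.96 without replicate 4). The antiviral genes Ifit1 and Rsad2, whose promoters are shown above, had 1.56 to 8.16 CPM against 9.38 to 202 (3.94) and 1.56 to 2.82 against 3.02 to 24.5 (2.11). Ifit3 and Ifit3b share sequence, and their separate counts are uncertain. In the plot of interferon-response genes the 4 knockdown libraries keep nearly the same order at every gene.

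**Figure D2:**
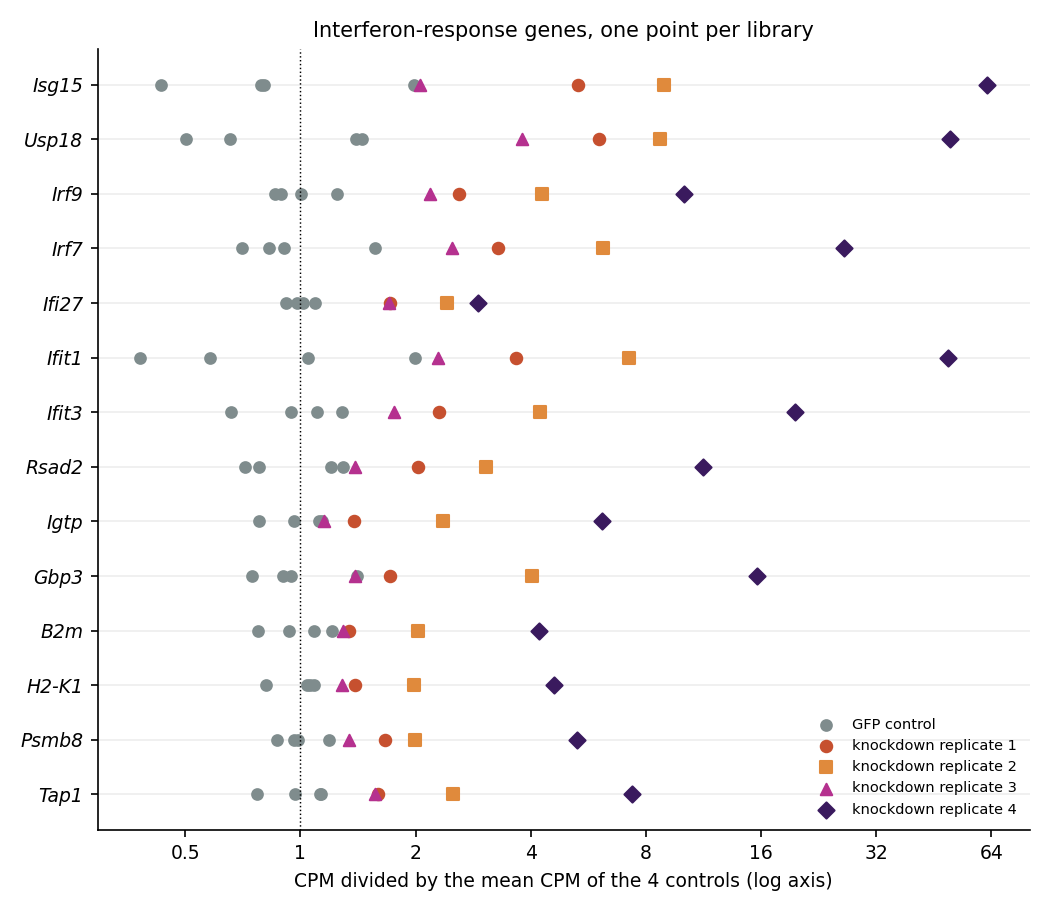
Levels of 14 interferon-response genes in each library, as CPM divided by the mean CPM of the 4 controls, on a log axis. Grey points are the controls and coloured points the knockdown replicates; replicate 4 is the highest and replicate 3 the lowest knockdown library at every gene shown.

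Further interferon-regulated groups followed with smaller differences. Of 14 interferon-inducible GTPases, which act against intracellular pathogens, all were tested, all had a higher mean and 7 (50.0%, against 2.78% of all genes) lay above all controls, with a median of 1.47, or 0.78 without knockdown replicate 4. Igtp had 6.00, 5.18, 6.14 and 4.21 CPM in control and 7.42, 12.7, 6.19 and 33.1 CPM in knockdown (1.44; adjusted p = 0.894, edgeR). Its lowest knockdown value, in replicate 3, was level with the highest control. All 17 genes of class I antigen presentation had a higher mean and 10 (58.8%, against the same 2.78%) lay above all controls, with a median of 1.15, or 0.63 without replicate 4. B2m, the light chain of class I molecules, had 79.2, 68.1, 88.2 and 56.6 CPM in control and 98.1, 149, 94.5 and 308 CPM in knockdown (1.15 ± 0.41 SE; adjusted p = 0.808, edgeR). Psme1, a proteasome activator subunit, had 23.5 to 26.6 and 29.4 to 41.6 CPM (0.42), and Tap1, the peptide transporter, had 2.78 to 4.07 and 5.65 to 26.5 CPM (1.68). Class I genes of the H2-Q and H2-T families share sequence, and their separate values are uncertain.

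Class II molecules, which antigen-presenting cells display, were low in both groups. Of 8 genes, 7 had a higher mean, with a median of 0.59, or 0.36 without knockdown replicate 2 and 0.35 without control replicate 4. Only 1 (12.5%, against 2.78% of all genes) lay above all controls. It was the lysosomal protease Ctss, which microglia also express (69.7 to 79.6 CPM against 83.8 to 199.5, 0.71). Cd74, the invariant chain, had 4.51, 4.04, 7.34 and 2.34 CPM in control and 3.93, 10.4, 7.62 and 7.19 CPM in knockdown (0.65 ± 0.93 SE; adjusted p = 0.973, edgeR), with overlapping groups. The interferons themselves were absent or near 0. Ifna1, Ifna2, Ifnk, Ifng and Ifnl2 had no count in any of the 8 libraries, and Ifnb1 was above 0 only in knockdown replicate 4, at 0.0510 CPM. The receptor genes lay close to 0, with Ifnar2 at 10.0 to 11.5 CPM in control and 11.6 to 12.3 in knockdown (0.16), Ifngr1 at 0.20 and Ifnar1 at 0.07. Sensors of foreign nucleic acid (17 listed, 15 tested) had a median of 0.16. It was 0.25 without knockdown replicate 1, and 0.094 and 0.10 when control replicate 4 or 3 was left out. Of the 15, 3 lay above all controls (20%, against 2.78% of all genes). They were Ddx58 (3.38 to 4.89 against 7.30 to 32.7 CPM, 1.76), Dhx58 (0.651 to 1.28 against 1.80 to 10.3, 2.00) and Tmem173 (3.06 to 3.23 against 3.37 to 5.56, 0.49). The genes of small RNA processing, which hairpin RNAs also pass through, had a median of 0.014 over 13 members, and Drosha, Xpo5 and Ago1 had 68.2, 27.7 and 27.8 TPM in control against 69.7, 28.0 and 28.0 in knockdown.

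Scores per library, the mean over a list of each gene's log2 CPM centred on all 12 libraries, set both gene groups side by side. The immediate early factors scored -0.34 to -0.20 in the controls and 0.51, 0.46, 0.28 and 0.01 in knockdown replicates 1 to 4. The interferon-stimulated genes scored -1.31 to -0.53 in the controls and 0.24, 1.04, -0.07 and 2.79 in knockdown replicates 1 to 4. Replicate 4 was the lowest knockdown library for the early factors and the highest for the interferon genes, and replicate 1 was the highest for the early factors and below replicates 2 and 4 for the interferon genes. The overexpression libraries scored -0.23 to 0.29 and -1.05 to 0.80 for these lists. For the early factors 3 of the 4 controls lay below every overexpression library, and for the interferon genes 2 of the 4 did; in both lists the overexpression range overlapped that of knockdown.

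**Figure D3:**
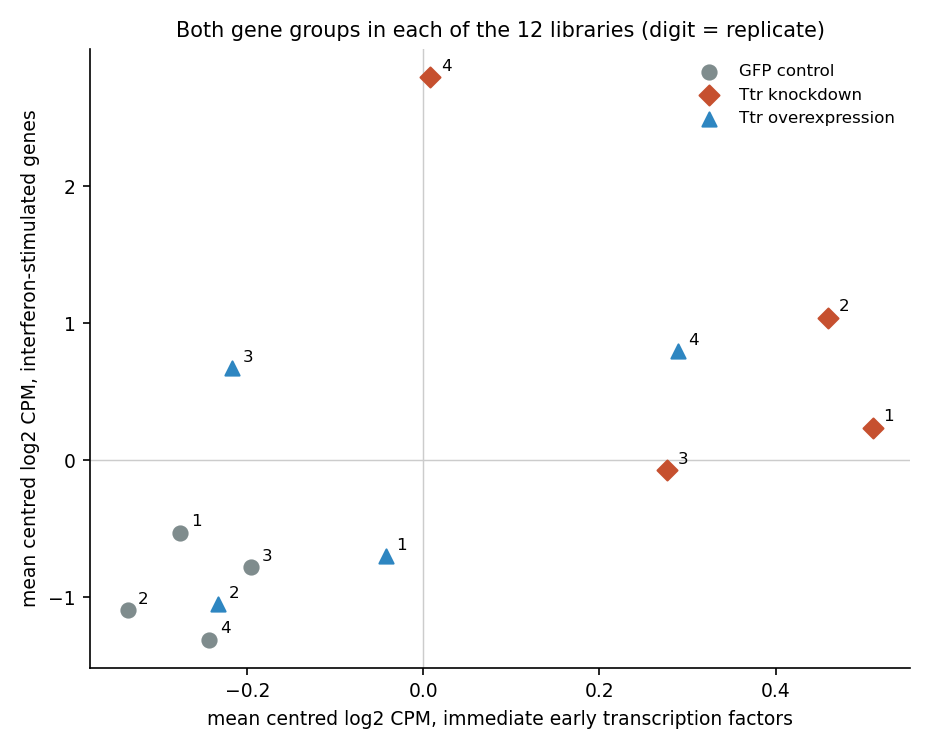
Score of the immediate early transcription factors (horizontal) against that of the interferon-stimulated genes (vertical) in each of the 12 libraries, in log2 units, with the replicate number beside each point. The 4 controls lie together at the lower left, and knockdown replicate 4 has the highest interferon score, 2.79, at an early-gene score of 0.01.

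All 22 myelin and oligodendrocyte genes had a lower mean in knockdown, with a median of -0.45, or -0.18 without control replicate 2 and -0.28 without knockdown replicate 4, and none passed the edgeR test. Mag, a myelin adhesion protein, had 114, 291, 111 and 204 CPM in control and 125, 137, 152 and 61.6 CPM in knockdown (-0.59; adjusted p = 0.897, edgeR). The groups overlapped: control replicates 2 and 4 were highest and knockdown replicate 4 lowest. Olig2, a lineage transcription factor and the one gene of the list with all knockdown libraries below all controls (1.33% of all genes), had 26.1 to 39.4 CPM in control and 21.6 to 25.8 in knockdown (-0.39; adjusted p = 0.8288, edgeR). In bulk tissue fewer cells of a type and less RNA per cell cannot be told apart. Precursor markers had a median of 0.07, or 0.015 without knockdown replicate 3, 0.029 without knockdown replicate 1 and 0.039 without control replicate 1, with Pdgfra at 48.2 to 61.2 CPM in control and 52.5 to 57.3 in knockdown.

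Microglial genes had higher means without a called gene. Of 17 homeostatic microglia markers 16 were above 0 and 3 (17.6%, against 2.78% of all genes) lay above all controls, with a median of 0.20, or 0.11 without knockdown replicate 4. Tmem119, a microglial membrane protein, had 29.2, 30.7, 28.5 and 24.98 CPM in control and 34.0, 33.6, 31.9 and 50.7 CPM in knockdown (0.40 ± 0.18 SE; adjusted p = 0.878, edgeR). Their summed level was 679.9 to 800.1 CPM in control and 793 to 1024 in knockdown. Activated microglia genes had a median of 0.19 over 25, or 0.078 without knockdown replicate 4, with none apart between the groups, and complement C4b had 140.0 CPM in replicate 4 against 30.02 to 47.0 in the controls. Of 21 lymphocyte genes 9 passed the filter, of which 6 had a higher mean in knockdown. Cd8a and Lck lay above all controls (22.2%, against 2.78% of all genes) and Ighm below (11.1%, against 1.33%). The median of the 9 was 0.27, or -0.077 without knockdown replicate 3, 0.092 without control replicate 2 and 0.44 without knockdown replicate 1. Over the 21 the summed level was 67.7 to 97.0 CPM in control and 53.3 to 67.9 in knockdown, and the defining genes were near 0 but none was at 0 in all 8 libraries, with Cd8a at 0.0425 to 0.0867 CPM in control and 0.146 to 0.561 in knockdown. The part of these markers in the interferon values was not tested.

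Astrocyte identity genes had a median of 0.08 (16 genes), or 0.041 without control replicate 4, and Aldh1l1, a folate enzyme that marks astrocytes, had 45.5 to 53.6 CPM in control and 53.2 to 75.4 in knockdown (0.25). Gfap, the intermediate filament of reactive astrocytes, went the other way from its list: it had 178, 199.9, 148 and 136 CPM in control and 98.7, 133, 127 and 88.6 CPM in knockdown (-0.56 ± 0.25 SE; adjusted p = 0.864, edgeR). All 4 knockdown libraries lay below all 4 controls, whereas 19 of the 24 reactive astrocyte genes tested had a higher mean; that list shares Psmb8, Gbp2 and Cxcl10 with the interferon lists. All 18 endothelial genes had a higher mean, 5 (27.8%, against 2.78% of all genes) lay above all controls and the median was 0.17. Pecam1, an endothelial adhesion molecule, had 17.4 to 18.5 CPM in control and 19.9 to 24.6 in knockdown (0.30; adjusted p = 0.734, edgeR). Mural and meningeal genes had a median of 0.24, or 0.12 without knockdown replicate 3, 0.14 without control replicate 4 and 0.46 without control replicate 3. Tagln, a smooth muscle protein, had 2.80 to 3.60 and 4.66 to 5.87 CPM (0.62; adjusted p = 0.847, edgeR). Neither myelin, microglial, astrocyte nor vascular lists held a gene past the threshold.

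Excitatory neuron genes had a median of -0.11, with 12 of 20 below 0, and Tbr1, a factor of deep-layer neurons, had 179, 204, 166 and 172 CPM in control and 159, 149.9, 137 and 126 CPM in knockdown (-0.33 ± 0.10 SE; adjusted p = 0.590, edgeR), with the groups apart. Interneuron genes had a median of 0.09, or 0.053 without knockdown replicate 4, and Calb2, a calcium-binding protein, stood out in 1 library, with 50.6 CPM in knockdown replicate 2 against 10.0 to 20.2 in the other 7. The largest difference of the interneuron list was 1.04, or 0.47 without knockdown replicate 2. What sets that library apart was not tested. Striatal genes had a median of 0.20 whose sign rested on single libraries: it was -0.62 without knockdown replicate 3 (2 of 16 above 0), -0.12 without control replicate 1, -0.096 without control replicate 3, 0.35 without knockdown replicate 1, 0.47 without knockdown replicate 4 and 0.70 without control replicate 4. The list had scores from -1.21 to 1.13 in control and -1.14 to 1.35 in knockdown. In knockdown replicates 1 to 4 the striatal scores were -0.13, -0.07, 1.35 and -1.14, and the early-gene scores 0.51, 0.46, 0.28 and 0.01. In control replicates 1 to 4 the striatal scores were -1.21, 0.21, -0.82 and 1.13, and the early-gene scores -0.28, -0.34, -0.20 and -0.24. The part of striatal tissue in the early-gene scores was not tested. In a fit with the striatal score as a covariate 4 genes passed, and in a fit with the mural and meningeal score none did.

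**Figure D4:**
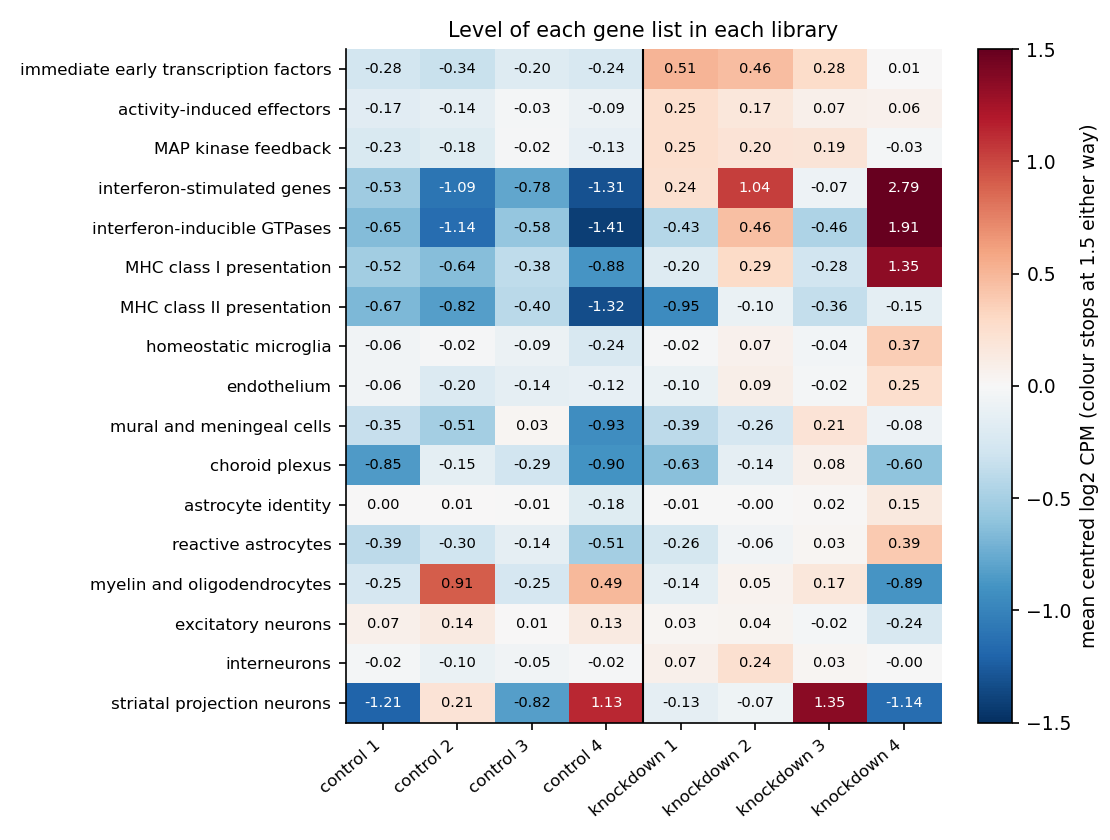
Score of 17 gene lists in the 4 control and 4 knockdown libraries, as the mean log2 CPM of the members centred on all 12 libraries; red is higher and blue lower. The top 6 lists are higher in knockdown than in control on average, and knockdown replicate 4 is highest in the interferon lists (2.79) and lowest in myelin (-0.89).

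The pathways that transthyretin and the title of the study point to showed no called gene. Of 22 genes of the thyroid hormone axis 8 were above 0 and none kept the groups apart, with a median of -0.02. Slco1c1, a thyroxine transporter of the blood-brain barrier, had 42.3 to 52.2 CPM in control and 47.0 to 62.6 in knockdown (0.16; adjusted p = 0.908, edgeR), and Hr, a thyroid-responsive corepressor, had 23.1 to 35.8 and 19.6 to 28.9 (-0.27; adjusted p = 0.937). Klf9, induced by thyroid hormone and glucocorticoid, had 252 to 272 and 232 to 268 CPM (-0.10). Retinoid genes had a median of 0.13 over 19 tested, or 0.003 without knockdown replicate 3 and 0.058 without control replicate 1, with none apart. Stra6, a membrane receptor for retinol uptake, had 3.89 to 9.06 CPM in control and 6.79 to 12.3 in knockdown (0.47; adjusted p = 0.897, edgeR).

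Of 31 genes of vitamin B12 and one-carbon metabolism, 28 were tested, 19 were above 0 and the median was 0.03. Above all controls lay 3 (10.7%, against 2.78% of all genes), and 1, Mmadhc, lay below (3.57%, against 1.33%). Tcn2, the carrier that delivers vitamin B12 to cells, had 13.5 to 15.4 CPM in control and 16.6 to 24.7 in knockdown (0.39; adjusted p = 0.770, edgeR), and Mat2a, which makes S-adenosylmethionine, had 124 to 130.5 and 131 to 156 (0.15; adjusted p = 0.863). Both lay above all controls. Mut, the B12-dependent mitochondrial mutase, had 35.3 to 40.2 and 36.6 to 45.9 CPM (0.12).

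Glucocorticoid receptors and targets had a median of 0.12 over 22 genes, or 0.043 without knockdown replicate 4. The 2 above all controls (9.09%, against 2.78% of all genes) were the activity-regulated genes Per1 and Dusp1, whereas the stress-induced chaperone Fkbp5 (28.6 to 31.7 against 28.4 to 42.1 CPM, 0.14) and the kinase Sgk1 (40.6 to 51.9 against 36.9 to 50.5, -0.06) overlapped. All 12 stress peptide genes tested had a higher mean (median 0.16), and 1 lay above all controls (8.33%, against the same 2.78%). It was Adcyap1r1, the receptor of the peptide PACAP, at 199 to 241 CPM in knockdown against 175 to 198 in control (0.23; adjusted p = 0.631, edgeR). The largest difference of the stress peptide list was 2.26. Without knockdown replicate 2 the largest was 0.53, and 11 of the 12 had a higher mean. Genes of the unfolded protein response had a median of -0.04 over 26, and Sdf2l1, Herpud1 and Atf6 lay below all controls (11.5%, against 1.33% of all genes). Sdf2l1, a chaperone of the endoplasmic reticulum, had 9.77 to 11.2 CPM in control and 7.59 to 9.07 in knockdown (-0.29; adjusted p = 0.8288, edgeR). Ribosomal proteins and oxidative phosphorylation had medians of 0.02 and -0.03. Haemoglobin and other blood genes had a median of -0.08 over 5, from -0.22 without control replicate 4 to 0.084 without control replicate 3, and 0.065 without knockdown replicate 3. With any 1 library left out, the medians of the ribosomal, oxidative phosphorylation, unfolded protein response, thyroid, vitamin B12, clock, small RNA and signalling machinery lists stayed between -0.067 and 0.060.

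**Figure D5:**
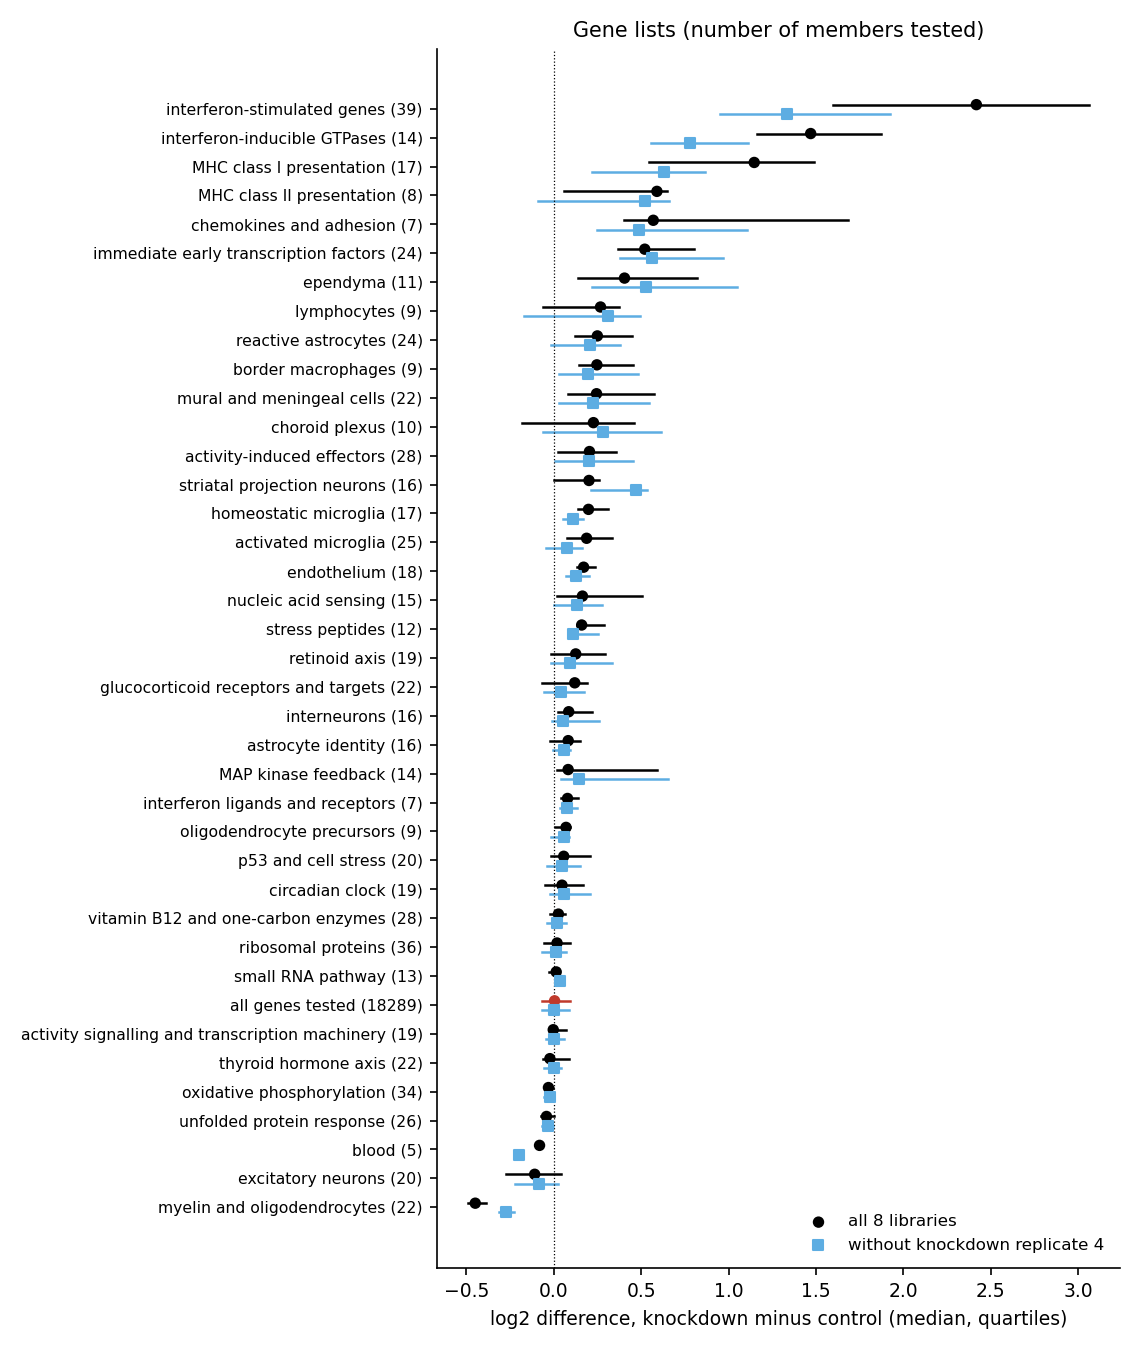
Median (points) and quartiles (lines) of the log2 difference, knockdown minus control, over the tested members of each list, with all 8 libraries (black circles) and without knockdown replicate 4 (blue squares); all genes tested are in red. The interferon-stimulated genes lie farthest to the right, at 2.42 and 1.33, and the myelin genes farthest to the left, at -0.45 and -0.28; without control replicate 2, not drawn, the myelin median was -0.18.

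On the lower side no gene passed the adjusted threshold, while 334 had an unadjusted p below 0.05 and DESeq2 called 2 of its 43. The smallest p-value belonged to Klf7, a Krüppel-like factor of neurons. It had 72.9, 77.6, 77.1 and 75.3 CPM in control and 63.1, 63.7, 64.8 and 64.8 CPM in knockdown (-0.24 ± 0.05 SE, log2; adjusted p = 0.234, edgeR). The difference was small and the groups were clearly apart. Rn7sk, the 7SK small nuclear RNA that holds the elongation factor P-TEFb inactive, had 8.12, 1.49, 3.85 and 6.16 CPM in control and 0.340, 0.316, 0.285 and 1.23 CPM in knockdown (-3.26 ± 0.74 SE; adjusted p = 0.417, edgeR). It is transcribed by RNA polymerase III without the poly(A) tail on which these libraries were selected, and the overexpression libraries had 3.36, 5.90, 3.87 and 0.355 CPM. The other 8 of the 10 smallest p-values had log2 differences of -1.11 to -0.17 and adjusted p-values of 0.502 to 0.554. Among them Dip2b, a disco-interacting protein, had 90.5 to 97.3 CPM in control and 80.0 to 89.0 in knockdown (-0.17), Sh3rf3, a scaffold with SH3 domains, had 35.1 to 38.1 and 30.8 to 32.5 (-0.20), and Lcmt2, a tRNA-modifying enzyme, had 8.95 to 10.1 and 7.19 to 8.11 (-0.32). All 10 kept the groups apart, against 1.33% of all genes with all 4 knockdown libraries below. Picking genes by smallest p-value favours such separation, so it adds no support.

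Against the overexpression libraries, which carry a vector from the same source, the early genes named had positive values and the interferon genes had values of both signs, all without a call in edgeR. Knockdown minus overexpression was 1.37 for Egr2, 0.60 for Egr4, 0.76 for Fos, 0.74 for Arc and 0.37 for Trib1 on the log2 scale (adjusted p 0.855 to 0.967, edgeR). It was 2.83 for Isg15, 1.51 for Irf9 and 0.93 for Ifi27 (adjusted p 0.855 to 0.967), but -0.41 for Igtp and -0.35 for H2-K1 (adjusted p = 0.989 for both), where 1 overexpression library had 201 CPM of H2-K1. At an unadjusted p of 0.05, 932 genes differed between the Ttr viruses (5.10%). By edgeR's test a difference between knockdown and overexpression is shown for none of these genes. DESeq2 made more calls than edgeR for this difference among the genes named, as given in the closing section. Both comparisons use the same 4 knockdown libraries.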

How the data were processed

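RNA was sequenced from bulk prefrontal cortex in 12 libraries, 4 for each virus, of which the 8 knockdown and control libraries are compared here. Per the labels' protocols, 500 ng of total RNA per sample was selected for poly(A) RNA and made into directional libraries with adaptors carrying unique molecular identifiers (UMIs). Reads were demultiplexed with bcl2fastq 2.20.0.422, handled with UMI-tools and counted per gene with featureCounts on GRCm38/mm10, per the submitters' processing notes. Which aligner and annotation were used, whether strand was counted and whether UMI duplicates were removed is not given in the sources used here. If the counting ignored strand, overlapping and antisense genes could not be told apart. The authors deposited 3 kinds of value: raw counts per gene, TPM, and log2 variance-stabilised values whose exact transformation is not stated. The deposited counts were used for all tests, the authors' TPM for levels per transcript length and as an alternative scale, and the authors' log2 values only as an alternative.

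Of 55401 identifiers 55141 matched a gene symbol, and the rest held 0.00474% of counts. Counts were filtered by edgeR's filterByExpr, scaled by the trimmed mean of M-values (TMM, factors 0.979 to 1.03), and tested with edgeR 4.0.16 (limma 3.58.1, R 4.3.3) by the quasi-likelihood F test in 1 fit of all 12 libraries with 3 group means, so that the groups share an estimate of spread. Benjamini-Hochberg adjustment ran over all 18289 genes. CPM uses the TMM-scaled library size. Log2 differences are edgeR's, with the SE taken from the F statistic. DESeq2 1.42.0, limma-voom, other filters and scalings, covariates, a replicate block and leaving out each library were alternatives. The edgeR steps were also run on counts simulated with known changes, using means and dispersions from the fit. At changes of 1.5-fold, 2-fold and 4-fold, 57.9%, 82.2% and 98.6% of the changed genes were recovered. There were 9 false calls among 18124 genes. Replicates within a group differed by more than sampling noise (chi-square per degree of freedom 5.37 to 22.4), so none was counted as a duplicate. Samples with the same replicate number did not deviate together, so the numbers were not taken as pairs.

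The text names the 15 genes with the smallest p-values among those higher in knockdown and up to 4 per list by p-value. Of the 10 with the smallest p-values among those lower, only some are named. Others are said to have been chosen after their values were seen, or serve as the markers and comparison genes of their list. The members and the 38 lists were chosen with earlier results of these data known. Promoter motifs were searched in RefSeq sequences on GRCm38.p6 with Python 3.11.15. Some genes of the lists are not reported here by name, although the list counts include them.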

Additional observations from a re-analysis of the deposited data

Results flagged for a closer look

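In groups of 4 libraries, 8 of the 128 sets of values examined held 1 library far from its other 3, by a gap rule that chance meets in about 1 in 20 groups. For Ttr, control replicate 2 had 8.50 CPM and the other controls 0.491 to 0.781. Knockdown replicate 4 had 44.9 CPM of the activity-induced factor Klf10, against 60.1 to 62.8 in the other knockdown libraries, and 12.4 CPM of the feedback inhibitor Spry4, against 15.8 to 16.4. The same library had 1.23 CPM of the small nuclear RNA Rn7sk, against 0.285 to 0.340.

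The score of the lymphocyte genes was -0.787 in knockdown replicate 1 and -0.154 to -0.0336 in the other 3. The astrocyte identity score was -0.176 in control replicate 4 against -0.0086 to 0.0069 in the other controls, and 0.147 in knockdown replicate 4 against -0.0082 to 0.0177 in the other knockdown libraries. The retinoid score was 0.286 in knockdown replicate 3 and -0.106 to -0.0551 in the others.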

How the results depend on the processing

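The number of genes called in knockdown against control depended on the processing more than the sizes of the differences did. It was 1 with edgeR, 22 with no filter on low counts, 43 with DESeq2, 4 with the striatal score as a covariate, 2 (Egr2 and Nr4a1) in a fit of the 8 compared libraries alone, and 0 with the mural and meningeal score, limma on log2(TPM + 0.5) or limma on log2(TPM + 1). A fit with the replicate block, whose numbers do not pair the samples, gave 0 calls and Nr4a1 at 1.05 (adjusted p = 0.103, edgeR). Leaving out 1 library gave 0 to 10 calls: 0 without any one control or knockdown replicate 1, 2 or 3, and 10 without knockdown replicate 4. Nr4a1 was 0.99 to 1.17 across these, and it also missed the threshold with the mural and meningeal score (1.07) and on log2(TPM + 0.5) and log2(TPM + 1) (1.04 on both). Ttr was -2.03 without knockdown replicate 2 and 0.60 without control replicate 2. Among the genes named, knockdown against overexpression had 1 call (Ttr), 7 with DESeq2, 0 with limma-voom, robust dispersions or the mural and meningeal score, and 0 to 2 when 1 library was left out. The median of the immediate early factors was 0.33 on the variance-stabilised scale. That of the interferon-stimulated genes was 1.38 on log2(TPM + 1), 0.86 variance-stabilised, and 1.33 to 2.84 with 1 library left out, the lowest without knockdown replicate 4.

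All 24 genes of smallest p other than Nr4a1 kept their direction in every alternative run, and 16 passed in at least 1. Of 134 further list members, 128 kept their direction. Ago4 turned to -0.014 with the mural and meningeal score and ran from -0.015 (without knockdown replicate 3) to 0.15. With 1 library left out, Col8a1 ran from -0.46 to 0.035, Tac1 from -0.10 to 0.58, Hba-a2 from -0.26 to 0.084, Hbb-bs from -0.23 to 0.084 and Hba-a1 from -0.20 to 0.091. The cause of these changes was not tested. With 4 libraries per group small differences can be missed, and Ttr had too few counts in control cortex for a lower level to be measured.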
